A study of Mus musculus with 9 samples.

Results

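The 78 genes described here are named for proteins of the mitochondrial ribosome. They were taken from the 54532 genes of the count table by name: a symbol starting with Mrpl or Mrps followed by a number, with names containing -ps, which mark pseudogenes, left out. Of them, 49 are named for the large subunit (Mrpl) and 29 for the small subunit (Mrps). RNA was sequenced from the livers of 9 male wild-type C57BL/6 mice, 3 in each of 3 groups, which the labels describe as independent biological replicates. The young mice were 8 weeks old, and the labels describe no injection for them. The old control mice were 20 months old and had received AAV9-shRNA-Neg, an adeno-associated virus carrying a negative control hairpin RNA, at 14 months. The old Fabp4 shRNA mice had the same age and received AAV9-shRNA-Fabp4 at 14 months. Both viruses were given by tail vein and into the subcutaneous white fat (sWAT), so age and virus injection cannot be told apart in either comparison with young liver.

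Mitochondria carry their own ribosomes, which translate only the few mRNAs of the mitochondrial genome, all of them for subunits of the respiratory chain and the ATP synthase. Their RNA comes from mitochondrial DNA, while every protein of the particle is encoded in the nucleus, made by cytosolic ribosomes and imported. The small subunit binds the mRNA and holds the decoding site, and the large subunit joins amino acids and feeds the nascent chain to the inner membrane. Liver is rich in mitochondria. Lower mitoribosomal protein gene dosage has been tied to longer life in worms, and the mouse gene Mrps5 was named in that work.

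The genes lie on 17 chromosomes in the GENCODE M21 annotation of GRCm38, with 11 of them on chromosome 11 and 0 on the sex chromosomes. All 78 symbols were found there. Promoter windows of 300 bases, from 250 bases before to 50 after the start of the gene, were matched in the RefSeq table (GRCm38.p6) for 69 of them. At least 1 of 3 motifs of factors known to act on nuclear genes for mitochondrial proteins was found, on either strand, in 45 of the 69 windows (65.2%), against 24.9% of 17491 protein-coding windows of the same length. The core GCGCANGC, bound by NRF1, was in 30.4% of the members' windows against 13.4% of all. The core CCGGAAG of ETS factors such as GABP was in 36.2% against 11.9%, and AAGATGGC, bound by YY1, in 17.4% against 3.22%. The median GC content was 58.3% in the members' windows and 56.3% in all. An ETS and a YY1 match can share the letters AAG, and each was then counted once for its own motif. The 250 bases before the start are shown for 3 of the members that come first in the hairpin comparison below, 1 for each motif, with that motif in capitals.
Mrpl12 (chr11:120484387-120484636, plus strand; NRF1 core on the opposite strand from base 172): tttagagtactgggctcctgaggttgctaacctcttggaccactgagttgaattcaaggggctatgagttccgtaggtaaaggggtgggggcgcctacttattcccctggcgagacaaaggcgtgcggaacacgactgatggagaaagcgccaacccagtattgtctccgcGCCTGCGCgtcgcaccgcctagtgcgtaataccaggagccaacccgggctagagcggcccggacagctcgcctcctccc
Mrps12 (chr7:28741822-28742071, minus strand; YY1 core on the opposite strand from base 52): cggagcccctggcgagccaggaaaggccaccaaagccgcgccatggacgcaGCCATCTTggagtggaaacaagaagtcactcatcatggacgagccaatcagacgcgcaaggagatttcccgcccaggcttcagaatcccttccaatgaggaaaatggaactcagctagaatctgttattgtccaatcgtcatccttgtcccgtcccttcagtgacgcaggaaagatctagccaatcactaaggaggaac
Mrps18a (chr17:46110754-46111003, plus strand; ETS core from base 225): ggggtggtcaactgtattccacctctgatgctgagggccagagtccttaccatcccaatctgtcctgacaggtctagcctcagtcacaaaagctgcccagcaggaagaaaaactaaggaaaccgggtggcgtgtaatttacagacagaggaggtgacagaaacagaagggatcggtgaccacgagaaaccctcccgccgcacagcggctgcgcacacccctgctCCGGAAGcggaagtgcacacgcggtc
Bases are counted from 1 at the 5′ end of each window as printed. The windows of Mrps12 and Mrps18a hold a further match each, an ETS core at base 252 and a YY1 core at base 262, past the stretch shown.

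Total counts per library were 14243344 to 17125440, a range in which 3 counts stand for 0.175 to 0.211 CPM, that is, counts scaled to the library size. The 10 hepatocyte markers examined were detected in every group. The extraction text of the labels names NRVMs, usually neonatal rat ventricular myocytes. Of 8 heart muscle markers, Myh6 and Nppa were at 0 in every group. In young liver 6 of the 8 were detected, and in each old group 4. The unnumbered young library, whose column name matches none of the young sample titles, held 4156 CPM of 12 skeletal muscle markers, and old Fabp4 shRNA replicate 3 held 88.1 CPM. The other 7 libraries held 0.589 to 2.88 CPM. The 8 heart muscle markers summed to 118 CPM in the unnumbered young library and 5.9 CPM in old Fabp4 shRNA replicate 3. In the other libraries they summed to 0.458 to 2.8 CPM. Fabp4 itself ran from 7.21 to 13.6 CPM over the old control libraries and from 3.81 to 11.2 CPM over those labelled with the hairpin. These ranges overlap (log2 fold change -0.49 ± 1.16 SE, edgeR adjusted p = 0.96), so the knock-down was not detectable in liver RNA.

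Levels per length differed widely among the members. In the deposited FPKM (fragments scaled to gene length and library size), averaged over the 8 libraries in which counts and FPKM agree, the large-subunit genes had a median of 12.4, with a range from 1.56 to 56.6. The small-subunit genes had a median of 7.28, with a range from 1.82 to 54.5. At the top were Mrpl14 at 56.6 ± 15.4 FPKM (SD, n = 8), Mrps21 at 54.5 ± 14.7 and Mrpl34 at 53.2 ± 8.39, followed by Mrpl52 at 48.3 ± 9.14 and Mrpl27 at 47.6 ± 13.1. The small-subunit genes next in order were Mrps7 at 33.4 ± 4.31 and Mrps24 at 28.1 ± 6.01. The first 5 neighbours in the order lie within each other's spread. Mrpl14, Mrps21, Mrpl34 and Mrpl27 are homologues of bacterial ribosomal proteins, while Mrpl52 has no bacterial counterpart. At the bottom were Mrpl19 at 1.56 ± 0.284 FPKM, Mrpl3 at 1.8 ± 0.363, Mrps25 at 1.82 ± 0.469 and Mrps30 at 2.94 ± 0.855, with Mrpl48 at 3.13 ± 0.633 and Mrps22 at 3.84 ± 0.931 above them. The length behind the FPKM was, up to a common factor, within 5% of the annotated exon bases in 72 of the 77 members detected. These bases are many in the low genes (5450 for Mrpl19, 6661 for Mrpl3, 6576 for Mrps25 and 6666 for Mrps30). In Mrps25 69.8% of them overlap Nr2c2 and in Mrpl19 36% overlap Gcfc2, on the opposite strand. For Mrps30 and Mrpl3 the shared part is 9.35% and 3.72%. The strand setting of the counting is not given, and the effect of these overlaps on the levels was not tested. Mrpl3 belongs to the core of the large subunit next to its catalytic site. Mrps30, despite its name, is part of the large subunit in the mammalian particle, as is Mrps18a. Mrpl53 (chromosome 6, 83109040 to 83109939) had 0 counts in all 9 libraries, and 88% of its exon bases are shared with other annotated genes. The remaining 77 genes passed the count filter and were tested.

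The summed level of the 78 genes was compared first, on edgeR's CPM with TMM factors, which level libraries on the trimmed mean of their log ratios. In the young libraries it was 2871 (replicate 1), 2698 (unnumbered) and 2895 CPM (replicate 5). In old control replicates 1, 2 and 5 it was 2168, 2389 and 2211 CPM. Every young library thus lay above every old control library, with means of 2821 ± 107 and 2256 ± 117 CPM (SD, n = 3 each). In old Fabp4 shRNA replicates 1, 3 and 6 it was 2677, 1915 and 2602 CPM, a mean of 2398 ± 420. Replicates 1 and 6 lay above all old control libraries and below all young ones, and replicate 3 was the lowest of the 9 libraries.

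**Figure D1:**
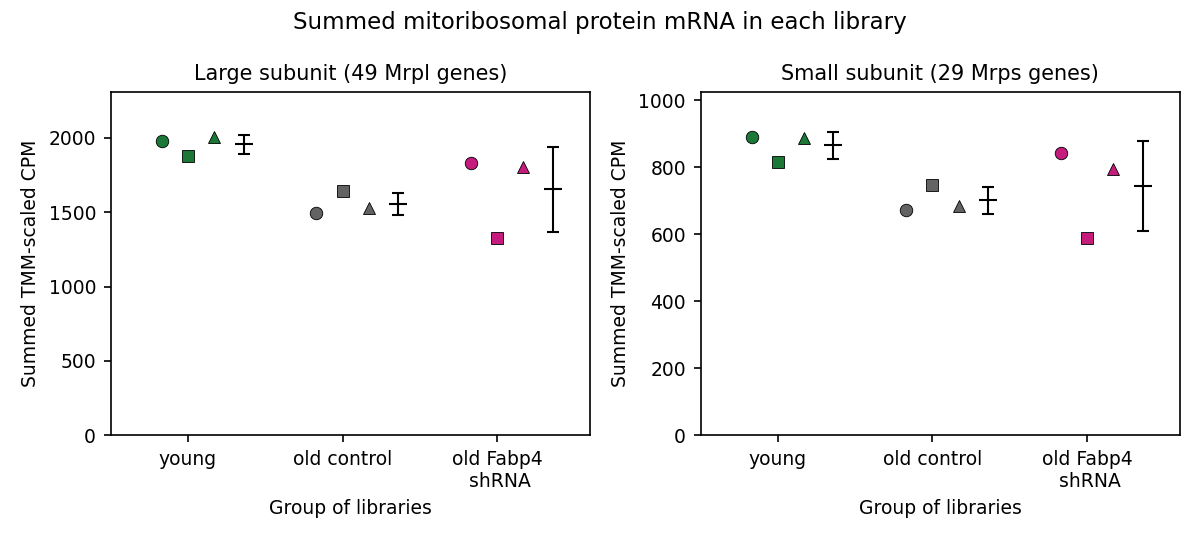
Summed TMM-scaled CPM of the 49 large-subunit genes (left) and 29 small-subunit genes (right) in each of the 9 libraries. Within a group the circle, square and triangle are replicates 1, unnumbered and 5 (young), 1, 2 and 5 (old control) or 1, 3 and 6 (old Fabp4 shRNA), and bars give the mean and SD (n = 3). Both subunits show the same order of libraries within the hairpin group, with replicate 3 at 1325 and 590 CPM.

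Throughout, genes are placed in a subunit by name, so Mrps30, Mrps18a and Mrps36 count as small-subunit genes. The sums of both subunits had the same order of groups. The large-subunit genes summed to 1956 ± 66.7, 1555 ± 75.6 and 1655 ± 286 CPM in the young, old control and old Fabp4 shRNA groups (SD, n = 3 each). The small-subunit genes summed to 865 ± 41.6, 701 ± 41.1 and 743 ± 135 CPM. The ratio of the large to the small sum was 2.26 ± 0.04, 2.22 ± 0.0265 and 2.23 ± 0.0473, and ran from 2.18 to 2.3 over all 9 libraries. The 3 groups' ratios overlap. As a share of all raw counts, without TMM scaling, the members took 0.237%, 0.261% and 0.266% of the young libraries, 0.249%, 0.208% and 0.22% of the old control libraries and 0.3%, 0.207% and 0.291% of the hairpin libraries. On that scale young and old control overlap, because old control replicate 1 exceeds young replicate 1.

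Single genes showed the same spread between libraries. Hairpin replicate 3 held the lowest value of the 9 libraries in 39 of the 77 tested genes, against 16 for old control replicate 5 and 14 for old control replicate 1. The highest value lay in young replicate 1 for 25 genes and in young replicate 5 for 24. Such counts were not made over all tested genes. In hairpin replicate 3 the median log2 deviation of a gene from its mean over the 9 libraries was -0.38 for the members. It was -0.54 for nuclear respiratory chain genes and -0.61 for cytosolic ribosomal protein genes. In whole liver, fewer cells of a type and less RNA per cell cannot be told apart.

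Old control liver was then compared with young liver. Of the 77 members, 72 had a lower estimate in old control liver (93.5%, against 48.9% of the 14025 genes tested), with a median log2 fold change of -0.34 against 0.01 for all tested genes. The large subunit had 44 of 48 lower and a median of -0.35, and the small subunit 28 of 29 lower and a median of -0.30. No member passed an edgeR p under 0.05 after Benjamini-Hochberg adjustment, where 0.0357% of all genes did, and the lowest adjusted p was 0.296. At an unadjusted p under 0.05, 9 members were lower (7 large, 2 small, 11.7% of the 77) against 4.07% of all genes, and 0 were higher against 6.42%. DESeq2 likewise called 0 members, where it called 168 of the 14025 genes, and its lowest adjusted p of a member was 0.0757. All 3 old control libraries lay below all 3 young ones in 30 members (20 large, 10 small, 39%), against 8.26% of all genes, and above them in 0, against 8.89%.

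These counts depend on how libraries were scaled. With total counts in place of TMM, the median of all genes moved to 0.16 and that of the members to -0.20, a distance of -0.36 from all genes where it had been -0.35. The members whose groups did not overlap then numbered 6 (7.79%, against 3.07% of all genes), and 0 were lower at an unadjusted p under 0.05 (against 1.42%). Without the unnumbered young library 72 of 77 were lower, with a median of -0.38. Markers of other liver cells also differed between these groups: 8 stellate cell and fibroblast markers, all detected, summed to 126 to 182 CPM in young and 206 to 379 CPM in old control liver, 7 endothelial markers to 73 to 88.3 and 102 to 191 CPM, and 8 red cell markers to 542 to 1057 and 198 to 346 CPM. The 10 hepatocyte markers summed to 123261 to 183419 CPM in young and 100265 to 155771 CPM in old control liver, with overlap. The part of these in the members' difference was not tested.

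The small-subunit gene Mrps24 had the lowest p. Its product is the homologue of a bacterial protein at the site where mRNA enters the particle. It stood at 52.7, 49.9 and 55.7 CPM in the young libraries and at 37.6, 34.3 and 31.1 CPM in the old control libraries, so the groups were well apart (log2 fold change -0.62 ± 0.18 SE, 95% interval -1.01 to -0.23, edgeR adjusted p = 0.296). The gene lies at 5703983 to 5715680 of chromosome 11 on the minus strand, and 15.4% of its exon bases overlap Urgcp on the same strand. In the libraries labelled old Fabp4 shRNA it was at 44.3, 38.9 and 48 CPM, between both other groups without overlap.

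Mrpl12 encodes the stalk protein that brings translation factors to the large subunit, and it has also been reported to bind the mitochondrial RNA polymerase. Its CPM were 38.5, 53.6 and 39.2 in young liver, 33.8, 25.9 and 24.6 in old control liver and 45.1, 46.2 and 47.9 in the hairpin group. Old control was below every library of both other groups. The log2 fold change of old control against young was -0.64 ± 0.21 SE (edgeR adjusted p = 0.35). Its high young value comes from the unnumbered library, yet the other 2 young libraries also exceed all old control ones.

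Mrpl42, one of the proteins added to the particle in mitochondria, was at 51.8, 47.8 and 55.3 CPM in young liver and at 30.4, 40 and 36 CPM in old control liver. The log2 fold change was -0.54 ± 0.19 SE (edgeR adjusted p = 0.381). The hairpin libraries stood at 28, 29.6 and 35.5 CPM, so that here both old groups lay below young and overlapped each other. Mrpl28 showed 37.9, 41.7 and 40.1 CPM in young against 32.5, 25 and 22 CPM in old control liver (log2 fold change -0.59 ± 0.21 SE). Mrpl55, also specific to mitochondria, showed 32, 24.5 and 26.4 against 17.9, 18.7 and 17.8 CPM (-0.61 ± 0.22). Mrpl14, the most abundant per length, showed 78.3, 61.2 and 60.8 against 52.7, 40.8 and 36 CPM (-0.63 ± 0.23). In each of these 3 genes every old control library lay below every young one, with edgeR adjusted p from 0.382 to 0.386.

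Among the small-subunit genes, Mrps23 followed Mrps24, at 17, 22.9 and 16.6 CPM in young and 14.1, 14.9 and 10.7 CPM in old control liver (log2 fold change -0.51 ± 0.23 SE, edgeR adjusted p = 0.466). Mrps16, a homologue of a bacterial protein and a known human disease gene, had a log2 fold change of -0.54 ± 0.26 SE and groups apart, at 21.3, 18.6 and 30.5 against 16.7, 14.4 and 17.3 CPM. Mrps36 had -0.63 ± 0.29 and groups apart, at 17.4, 11.7 and 10 against 9.47, 6.77 and 9.09 CPM. The protein of Mrps36 is now known as a part of the oxoglutarate dehydrogenase complex rather than of the ribosome, so it is a member by name only. Mrps5, the gene tied to lifespan, was at 54.6, 38.1 and 34.6 CPM in young, 36.6, 28.8 and 26.6 in old control and 33.2, 26.6 and 32.3 in hairpin liver. Its young and old control ranges overlapped through young replicate 5 (log2 fold change -0.47 ± 0.22 SE, 95% interval -0.95 to 0.02, edgeR adjusted p = 0.49).

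The 5 members with a higher estimate in old control liver had small differences, all with overlapping groups. Mrpl32 had a log2 fold change of 0.15, Mrpl3 and Mrps6 of 0.10, Mrpl21 of 0.05 and Mrpl18 of 0.03. Mrpl3 stood at 9.61, 14.5 and 9.39 CPM in young and at 10, 12.3 and 13.8 CPM in old control liver. Of the remaining genes with a known special role, Mrpl58, a hydrolase that frees stalled nascent chains, was at 39.8, 34.4 and 44.2 against 31.4, 31.3 and 30.1 CPM, a difference of -0.35 ± 0.25 SE with groups apart. Mrps22, another human disease gene, differed by -0.26 ± 0.28 with overlap. The 3 relatives of one bacterial protein, Mrps18a, Mrps18b and Mrps18c, differed by -0.30 ± 0.21, -0.43 ± 0.28 and -0.04 ± 0.35 on the log2 scale, each with overlap.

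**Figure D2:**
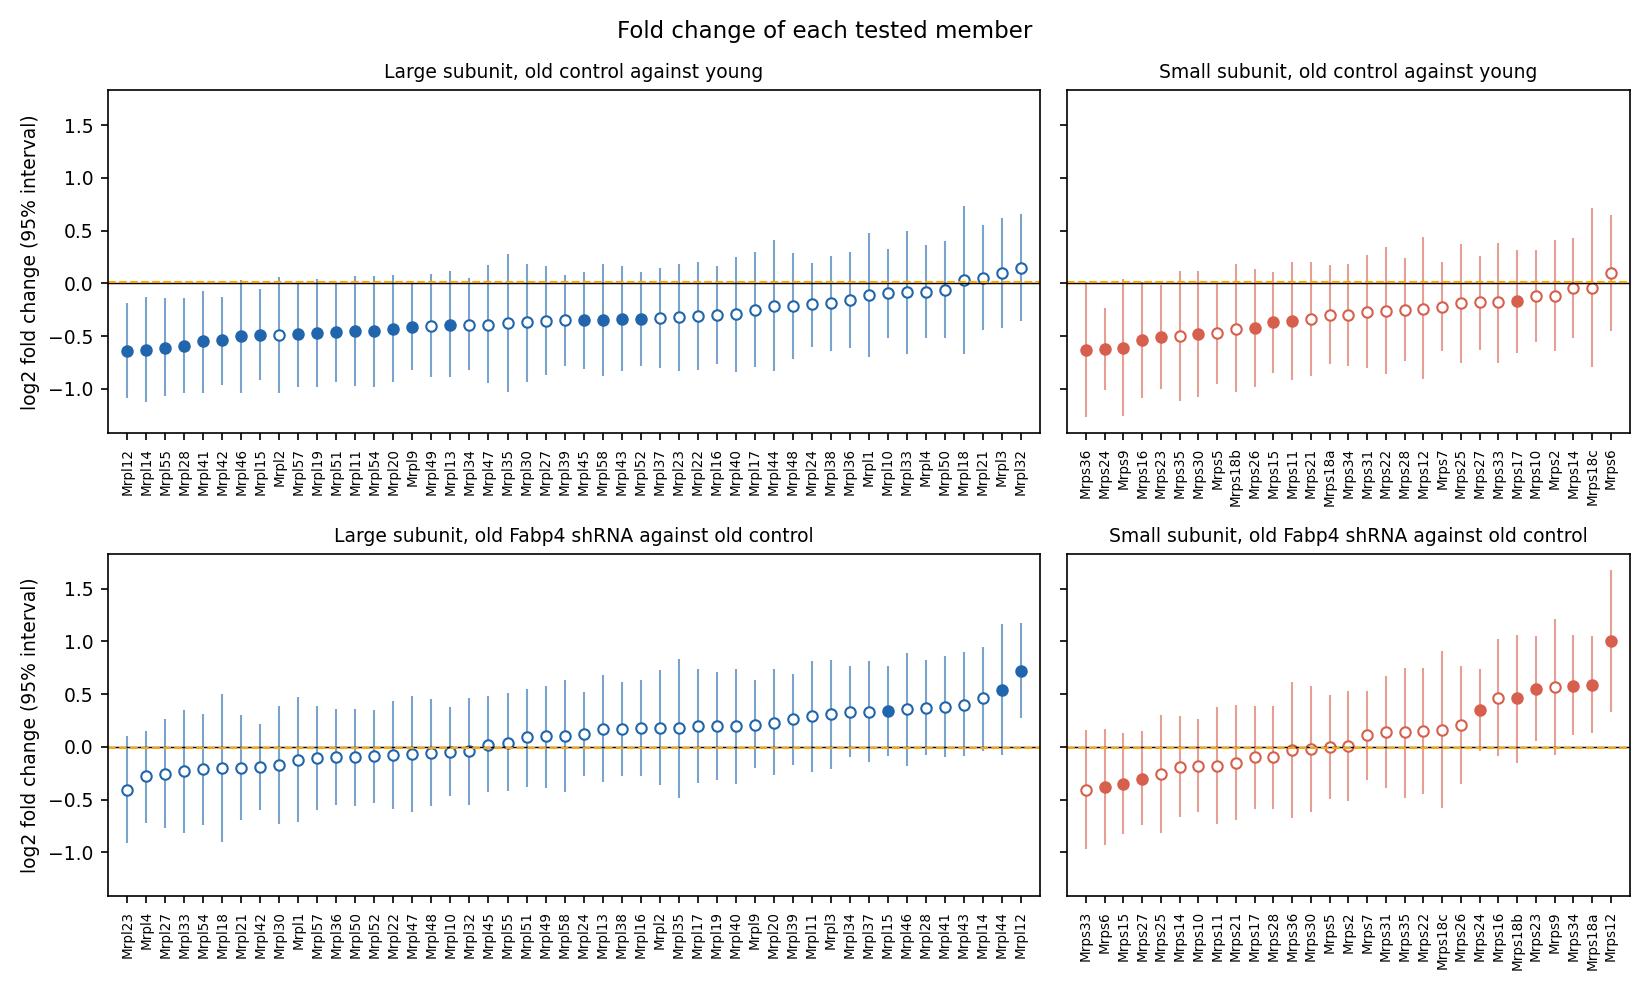
Log2 fold change with its 95% interval from edgeR for each of the 77 tested members, ranked within the 48 large-subunit (left, blue) and 29 small-subunit genes (right, red), for old control against young (top) and old Fabp4 shRNA against old control (bottom). Filled points mark genes whose 2 groups of 3 libraries did not overlap, and the dashed orange line is the median of all tested genes. In the top panels 72 of 77 points lie below 0, and in the bottom panels 45 lie above it.

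The libraries labelled old Fabp4 shRNA were compared with the old control libraries, which both this comparison and the one above use. Of the 77 members, 45 had a higher and 32 a lower estimate, with a median log2 fold change of 0.10 against -0.01 for all tested genes. The large subunit had 29 of 48 higher and a median of 0.11, and the small subunit 16 of 29 higher and a median of 0.01. EdgeR called 0 members and 0% of all genes at an adjusted p under 0.05, and the lowest adjusted p of a member was 0.728. At an unadjusted p under 0.05, 5 members were higher (6.49%, against 3.27% of all genes) and 0 lower (against 3.48%). DESeq2 also called 0 members, where it called 7 of the 14025 genes, and its lowest adjusted p of a member was 0.264. Groups were apart upward in 9 members (11.7%, against 6.02% of all genes) and downward in 3 (3.9%, against 5.67%). Of these 9, Mrpl12, Mrpl15 and Mrpl44 are named for the large subunit and the others for the small one, and the downward ones were Mrps6, Mrps15 and Mrps27.

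The split depends on single libraries. Without hairpin replicate 3, 63 of the 77 members were higher, with a median of 0.20, and 31 had groups apart upward (40.3%, against 10.2% of all genes, now with 2 libraries against 3). At an unadjusted p under 0.05 the count was then 14 (18.2%, against 2.47% of all genes). Without hairpin replicate 1 the split was 35 higher and 42 lower and the median -0.04, and without old control replicate 1 it was 40 and 37 with a median of 0.01. With scaling to total counts the members' median was 0.25 where that of all genes was 0.13, and 13 members had groups apart upward (16.9%, against 10.8% of all genes). The 10 hepatocyte markers summed to 89247 to 104882 CPM in the hairpin libraries, and the 9 neutrophil markers, of which Ly6g was at 0, to 5.85 to 15.8 CPM against 19 to 63.9 CPM in old control liver. The part of these and of the muscle markers of replicate 3 in this comparison was not tested.

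Mrpl12 had the lowest p. The hairpin libraries, at 45.1, 46.2 and 47.9 CPM, lay close together and above all 3 old control libraries, with a log2 fold change of 0.72 ± 0.21 SE (95% interval 0.27 to 1.17, edgeR adjusted p = 0.728). They lay within the young range, and the difference from young was 0.08 ± 0.20 SE.

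Mrps12 had the highest log2 fold change. Its protein belongs to the decoding centre, and mutations of its bacterial homologue give resistance to streptomycin. It stood at 37.6, 24.4 and 29 CPM in the hairpin libraries, against 18.9, 18 and 8.59 CPM in old control and 12.9, 22.2 and 18.5 CPM in young liver, so every hairpin library lay above the other 6. The log2 fold change was 1.00 ± 0.31 SE against old control (95% interval 0.33 to 1.68, edgeR adjusted p = 0.728) and 0.76 ± 0.31 against young (edgeR adjusted p = 0.513). The gene (chromosome 7, 28739641 to 28741820, minus strand) shares no exon bases with another gene. Sars2, the mitochondrial seryl-tRNA synthetase gene that is transcribed away from Mrps12 on the opposite strand, had 7.15, 5.74 and 6.63 CPM in old control and 9.22, 5.52 and 7.21 CPM in hairpin liver, with overlap.

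The other 3 members at an unadjusted p under 0.05 were also named for the small subunit. Mrps18a stood at 30.2, 22.4 and 24.6 CPM in hairpin against 15.5, 19 and 16.7 CPM in old control liver (log2 fold change 0.59 ± 0.21 SE). Mrps34, a mitochondria-specific protein needed for a stable small subunit, stood at 20, 21.5 and 28.6 against 14.4, 18 and 14.4 CPM (0.58 ± 0.22). Of the exon bases of Mrps34, 77.8% are shared with Nme3 on the same strand or Mapk8ip3 on the other, so its counts may be split or pooled with theirs. Mrps23 stood at 17.8, 17.6 and 23 against 14.1, 14.9 and 10.7 CPM (0.55 ± 0.23). All 3 had groups apart and an edgeR adjusted p of 0.728.

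Mrpl44, a member with the fold of an RNA-cutting enzyme and a known cardiomyopathy gene, had groups apart at 16.5, 17.7 and 20.3 against 13.5, 13.5 and 10.5 CPM (log2 fold change 0.54 ± 0.29 SE, edgeR adjusted p = 0.747). Mrps18b also had groups apart, with 0.46 ± 0.28, and Mrps18c overlapped, with 0.16 ± 0.34. Mrpl14, Mrps16, Mrpl43 and Mrpl28 had 0.46 ± 0.23, 0.46 ± 0.25, 0.40 ± 0.23 and 0.37 ± 0.21 SE, each with overlap. On the lower side, Mrpl23, whose protein lies at the exit of the nascent chain, had the lowest estimate of the large subunit, -0.41 ± 0.23, at 30.6, 18.4 and 23.7 against 34.6, 28.3 and 33.3 CPM. Mrps15 was apart downward, at 25.6, 15.9 and 24.2 against 27.1, 30.8 and 25.8 CPM (-0.35 ± 0.22), and so was Mrps27, an RNA-binding repeat protein, at 15.5, 13.6 and 15.5 against 18.2, 20.5 and 16 CPM (-0.30 ± 0.20). Mrps5 had a difference of 0.00 ± 0.22 SE, with a 95% interval from -0.49 to 0.49.

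**Figure D3:**
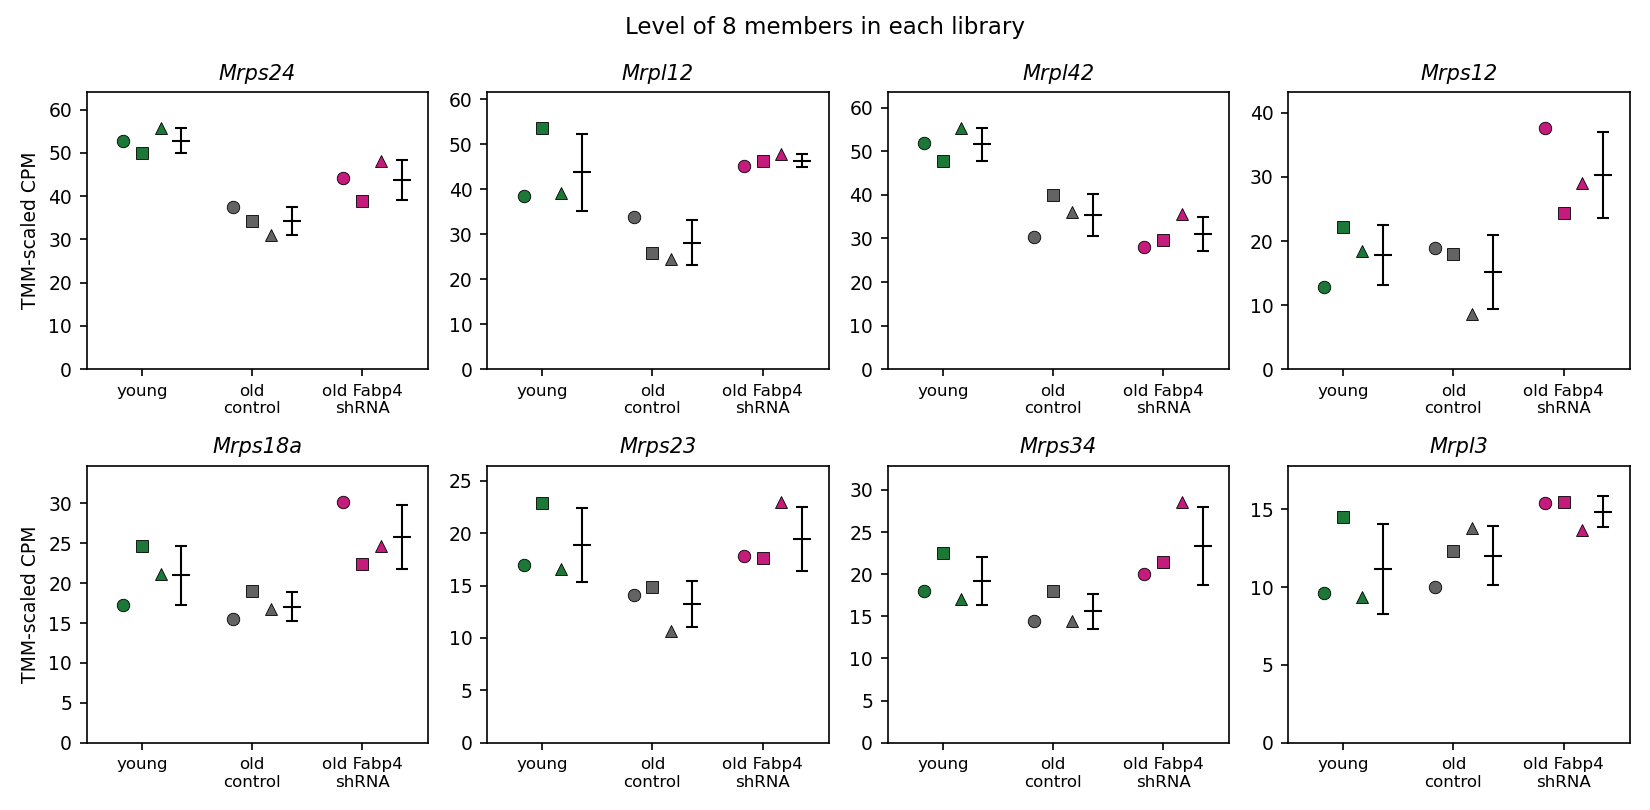
TMM-scaled CPM of 8 members in each of the 9 libraries, with the mean and SD of each group (n = 3) and replicates in the same shapes and order as in the plot of summed levels. Mrps24 and Mrpl12 are lowest in old control liver, Mrpl42 is lower in both old groups than in young liver, and Mrps12 is highest in the hairpin group, where it lies between 24.4 and 37.6 CPM.

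The comparison of the hairpin group with young liver shares libraries with both others. Here 65 of the 77 members had a lower and 12 a higher estimate, with a median log2 fold change of -0.21 against 0.02 for all genes. The median was -0.20 for the large and -0.27 for the small subunit. EdgeR called 0 members and 0.057% of all genes at an adjusted p under 0.05. DESeq2 called 0 members and 124 of the 14025 genes, and its lowest adjusted p of a member was 0.0736. At an unadjusted p under 0.05, 10 members were lower (against 4.5% of all genes) and 1, Mrps12, was higher (against 4.43%). Groups were apart downward in 17 members (22.1%, against 6.67% of all genes) and upward in 1 (against 6.79%). With scaling to total counts the members' median was 0.08 where that of all genes was 0.31, so its sign turned while its distance from all genes, -0.23, did not. Without hairpin replicate 3 the split was 51 lower and 26 higher with a median of -0.07, and 3 members were lower at an unadjusted p under 0.05 (3.9%, against 2.61% of all genes). Without young replicate 1 that count was 4 (5.19%, against 2.64%). Marker sums moved with this comparison too: the 10 hepatocyte markers, all detected, summed to 123261 to 183419 CPM in young and 89247 to 104882 CPM in hairpin liver, and the 8 red cell markers to 542 to 1057 and 183 to 380 CPM, both without overlap. Of the 10 hepatocyte markers 8 had a lower and 2 a higher estimate, and only 3 had groups apart downward. Alb weighs heavily in their sum, and alone took 7.12% to 10.4% of raw counts in young and 5.34% to 7.17% in hairpin libraries. The part of these markers in the members' difference was not tested.

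Mrpl42 had the lowest p here, with -0.73 ± 0.19 SE (95% interval -1.15 to -0.32, edgeR adjusted p = 0.343). Mrpl23 stood at 45.3, 31.1 and 44 CPM in young liver, above the 30.6, 18.4 and 23.7 CPM of the hairpin group (-0.73 ± 0.23, edgeR adjusted p = 0.441). Mrps15 stood at 40.3, 31 and 36.9 CPM in young liver, again above all hairpin libraries (-0.72 ± 0.22, edgeR adjusted p = 0.428). Mrpl54, Mrpl57, Mrpl55, Mrps27 and Mrps33 had groups apart too, with log2 fold changes of -0.66, -0.59, -0.56, -0.48 and -0.59. Mrps36 had -0.66 with overlap.

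Other gene lists around the mitoribosome were set beside the members. In old control against young, all 81 tested nuclear genes for respiratory chain subunits had a lower estimate (median -0.41), with groups apart downward in 33 (40.7%, against 8.26% of all genes). Of 84 tested cytosolic ribosomal protein genes, 83 were lower (median -0.27), with groups apart downward in 22 (26.2%, against the same 8.26%). The 5 mitoribosomal proteins with other names were all lower (median -0.37), among them Chchd1 at -0.63. Of 27 genes for mitoribosome assembly, 24 were lower (median -0.23), and of 13 translation factors 10 were (median -0.17). Of 20 mitochondrial tRNA synthetases 15 were lower (median -0.14), and of the 13 mRNAs encoded in mitochondrial DNA 12 were (median -0.22). Both mitochondrial ribosomal RNAs were higher, at 0.61 and 0.67 with overlap, and their median without the unnumbered young library was 0.36. Genes for mitochondrial DNA transcription and replication had 5 of 11 lower, with a median of 0.13 over all libraries and -0.08 when the unnumbered one was dropped. The nuclear regulators had 4 of 10 lower and a median of 0.05. Esrra, a receptor that activates mitochondrial genes, had -0.66 (edgeR adjusted p = 0.41), while Nrf1, Gabpa and Yy1, which bind the 3 motifs above, had 0.00, -0.07 and 0.09. With scaling to total counts the median of all genes was 0.16. The medians were then -0.27 for the respiratory chain, -0.13 for the cytosolic ribosome and -0.21 for the mitoribosomal proteins with other names. They were -0.10 for assembly, -0.07 for the translation factors and -0.12 for the mitochondrially encoded mRNAs. The tRNA synthetases then had 11 of 20 higher, with a median of 0.01. No gene of these lists was called by edgeR in any comparison. Members whose window holds the NRF1 core had a median of -0.35 and those without it -0.34, and for the ETS and YY1 cores the medians with and without were -0.32 and -0.35, and -0.31 and -0.35.

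In the hairpin group against old control, the mitochondrial tRNA synthetases had 16 of 20 higher (median 0.16), with the lowest p for Rars2, at 0.62 ± 0.23 SE (edgeR adjusted p = 0.728), and the assembly genes 16 of 27 (median 0.13). Tufm, the elongation factor that brings tRNA to the mitoribosome, stood at 70.7, 69.4 and 75 CPM in hairpin and 50.2, 57.7 and 31.5 CPM in old control liver, and at 60.9, 77.1 and 74.7 CPM in young liver (0.63 ± 0.23, edgeR adjusted p = 0.728). Like Mrpl12, its lowest 3 libraries were the old controls. The cytosolic ribosomal proteins (median -0.01) and the nuclear respiratory chain genes (median -0.03) lay close to all genes (-0.01). Without hairpin replicate 3 these 2 medians were 0.14 and 0.09, and that of the assembly genes 0.21. Of the 13 mRNAs that mitoribosomes translate, 12 had a lower estimate in the hairpin group, with a median of -1.14 (-0.91 without replicate 3). The lowest p was that of mt-Nd3, at -1.34 ± 0.35 SE (edgeR adjusted p = 0.728). Both mitochondrial ribosomal RNAs, mt-Rnr1 and mt-Rnr2, had -0.25 and -0.45. All mitochondrially encoded genes together took 4.42%, 11.1% and 14.5% of counts in old control replicates 1, 2 and 5 and 8.47%, 4.15% and 4.22% in hairpin replicates 1, 3 and 6, with overlap. Against young liver, the hairpin group had 77 of 81 nuclear respiratory chain genes lower (median -0.48). Groups were apart downward in 37% of these 81, against 6.67% of all genes. The cytosolic ribosomal proteins had 73 of 84 lower (median -0.36, 14.3% apart downward) and the mitochondrially encoded mRNAs 13 of 13 (median -1.40, 53.8%). Of the assembly genes 19 of 27 were lower (median -0.05), and of the tRNA synthetases 9 of 20 (median 0.05).

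**Figure D4:**
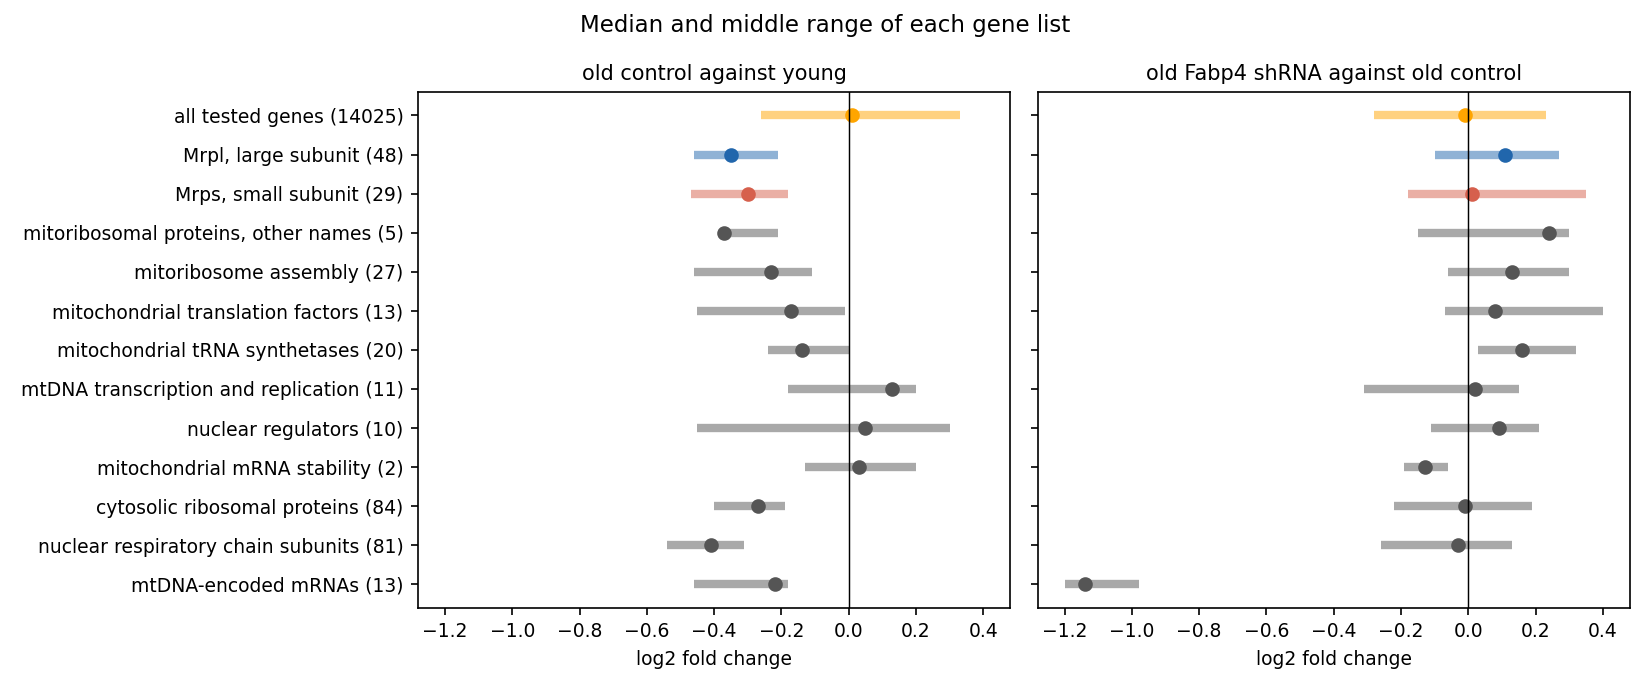
Median log2 fold change (point) and range from the first to the third quartile (bar) for all tested genes, the members by subunit and 10 related lists, for old control against young (left) and old Fabp4 shRNA against old control (right). The number of tested genes is in brackets. The members, cytosolic ribosomal proteins and nuclear respiratory chain genes lie left of all genes in the left panel, and the mitochondrially encoded mRNAs lie far left in the right panel.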

How the data were processed

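Liver RNA of 9 mice was sequenced. The submitters' processing notes name HISAT2 as aligner and GRCm38.p6 as genome. How reads were counted, by which annotation and with which strand setting, is not given in the sources used here. In the count table that the authors deposited, values are whole numbers of reads for 54532 genes. In their deposited FPKM table the counts are divided by gene length and by depth. The young titles carry the numbers 1, 4 and 5, so the column Y2 was assigned to the young group only. Over 10483 genes with at least 20 counts, counts and FPKM kept 1 ratio, within a relative tolerance of 0.001, in 0.229% of genes for that column and in 100% for the other 8. Its counts were used.

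Counts were filtered by group (filterByExpr, 14025 genes kept), scaled by TMM (factors 0.825 to 1.15) and tested with edgeR 4.0.16 (robust quasi-likelihood, R 4.3.3). The model had 1 mean per group over 9 libraries and 6 residual degrees of freedom. P-values are two-sided and adjusted by Benjamini-Hochberg over all tested genes. The fit was also run on simulated data. The planted changes were as large as the largest member estimate or larger, so that check does not bear on smaller ones. Apart from the alternatives below, FPKM values were used for levels per length only. Motifs were searched in RefSeq windows, and exon overlap was taken from GENCODE M21, in which 54409 identifiers were found.

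The members, lists and tests were chosen with earlier results of these data known. Named are, per comparison, the 5 members of each subunit with the smallest p, those highest and lowest in FPKM, a set of members with known roles, and the 2 genes with the smallest p of each related list. Of the related lists only the genes that bear on the members are printed. Other members named for a higher estimate or for groups that did not overlap, and Sars2, Nrf1, Gabpa and Yy1, were chosen after their values were seen. Alternatives were other scalings and filters, DESeq2 1.42.0, limma 3.58.1 (voom, and log2 FPKM after adding 1 or 0.1), the 6 libraries compared, a replicate block, recovered reads for the unnumbered column, and each library left out. Leaving out the unnumbered young library and hairpin replicate 3 together was added after seeing the data.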

Additional observations from a re-analysis of the deposited data

How the results depend on the processing

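No member was called at an adjusted p under 0.05 in any of the alternatives run, by edgeR, DESeq2 or limma. Over all tested genes these called from 0 to 168 in a comparison. The log2 fold changes of the 5 members per subunit with the smallest p in each comparison, 30 in all, kept their direction in all 660 checks. These were picked for a small p in the same data, and the alternatives mostly refit the same libraries. A kept direction was therefore likely beforehand, and it does not bear on the other members. The counts at an unadjusted p under 0.05 varied, as did the share of all genes at that level, given in brackets, and the cause was not tested. For old control against young, members lower numbered 9 as reported (4.07%), 15 with DESeq2 size factors (4.52%), 0 with scaling to total counts (1.42%), 17 with no filter on low counts (3.64%), 20 with the 6 libraries compared (5.19%) and 20 and 21 on log2 FPKM with a pseudocount of 1 and 0.1 (6.56% and 6.41%). With reads recovered from the FPKM column they numbered 21 (5.97%) and with both doubted libraries left out 22 (5.62%). The fits on log2 FPKM and on recovered reads hold other values for the unnumbered young library than its count column. With 1 library left out they numbered from 5 (2.64%, without old control replicate 5) to 19 (4.51%, without hairpin replicate 3), and 14 (4.75%) without the unnumbered young library. For the hairpin group against old control, members higher numbered 5 as reported (3.27%), 9 with total counts (5.63%), 16 without both doubted libraries (3.32%) and 3 to 14 with 1 library left out. The 3 came without old control replicate 5 (1.59%) or hairpin replicate 6 (2.49%), and the 14 without hairpin replicate 3 (2.47%). Those lower numbered 0 (3.48%), and 0 to 1 with 1 library left out, the 1 without hairpin replicate 1 (5.64%). For the hairpin group against young, members higher numbered 1 as reported (4.43%), 4 with total counts (13.8%) and 5 with either FPKM pseudocount (7.6% and 8.12%). They numbered 5 with recovered reads (9.77%), 2 without both doubted libraries (4.17%) and 0 to 3 with 1 library left out. The 3 came without the unnumbered young library (6.95%). The 0 came without young replicate 1 (2.56%), young replicate 5 (3.08%) or hairpin replicate 1 (7.57%). Those lower numbered 10 as reported (4.5%), 1 with total counts (1.23%), 19 with either pseudocount (8.77% and 8.74%), 16 with recovered reads (7.43%), 5 without both (3.81%) and 3 to 14 with 1 left out (2.61% and 7.48%). The median of the small subunit in the hairpin group against old control was 0.19 with total counts and 0.20 without both doubted libraries. Against young, the medians with total counts were 0.09 (large) and 0.02 (small), and that of the small subunit was -0.32 to -0.09 with 1 library left out.

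Deviations of same-numbered libraries from their group means correlated between -0.05 and 0.11 over genes. The same was not computed for differently numbered libraries, so whether the replicate numbers pair the libraries was not settled. A replicate block compares groups only through libraries whose number occurs in another group. In the hairpin group this is replicate 1 alone, so the hairpin estimates of that fit rest on 1 library. Those of old control against young rest on replicates 1 and 5, with a members' median of -0.43. Against old control the hairpin medians were 0.32 for both subunits, and against young the small-subunit median was -0.03. The number of libraries, 3 per group, limits the precision of each value.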

Other observations

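The 5 pseudogenes left out by name held few reads over all 9 libraries: 93 counts for Mrpl48-ps, 71 for Mrpl23-ps1, 25 for Mrps36-ps1, 11 for Mrps36-ps2 and 0 for Mrps36-ps3. The FPKM column of the unnumbered young library, scaled back to reads, gave the members 2305 CPM of its total, against 2610 CPM in the count column of that name. It exceeded the count column in 26 of 77 members, with a median log2 difference of -0.12.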
